A study of Mus musculus with 6 samples.

Results

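The genes described here in mouse embryonic stem cells are Snai1, Snai2, Zeb1, Zeb2, Twist1 and Twist2. These 6 genes encode 3 families of DNA-binding proteins best known from the epithelial-mesenchymal transition (EMT), and they were chosen as the rows whose Ensembl identifier maps to these symbols, 6 of the 55401 genes in the table. RNA was sequenced from 2 genotypes of V6.5, a mouse embryonic stem cell line, with 3 libraries each. The first group was labelled wild type (WT) and the other Cdh1-/- (the knockout), Cdh1 being the gene of the adhesion protein E-cadherin. The labels name no treatment or time, and state neither the culture medium, the use of feeder cells, the number of knockout clones, nor whether replicates A, B and C came from separate cultures. The p-values therefore measure the spread between these libraries, which may be technical.

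The Snail proteins (Snai1 and Snai2) and the Zeb proteins are zinc finger factors that bind short DNA elements called E-boxes, and the promoter of Cdh1 is their best-studied target. Twist proteins are basic helix-loop-helix factors that bind E-boxes as dimers with E proteins such as Tcf3 and Tcf12. All 3 families are used by embryos at gastrulation and in the neural crest, where epithelial cells lose E-cadherin and become migratory. Here Cdh1 was the disrupted gene and the transcripts of its known repressors were read out.

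Library totals ran from 18020719 to 23381942 counts. A level at or under 6 counts (the floor) was not distinguished from 0, because most low counts were even numbers, a pattern that counting each mate of a pair would give. Levels are given as CPM, the counts-per-million scale on TMM-scaled library totals. On the unscaled library totals the floor lay between 0.257 and 0.333 CPM. Knockout replicate A stood apart from the other knockout libraries on the second principal component (43.5, against -11.7 in B and -25.8 in C), so the changes of Zeb1, Zeb2 and Twist1 are also given without it. On the same component WT replicate C (-23.8) lay apart from WT A (8.86) and WT B (8.99). Cdh1 was lower in every knockout library than in any WT library, with means of 559 ± 19.1 CPM for WT and 173 ± 9.05 CPM for the knockout (SD, n = 3). Of 17325 genes with enough counts to be tested, 13.3% differed between genotypes at an adjusted p under 0.05 in edgeR's quasi-likelihood test. Of the tested genes 7.60% rose and 5.71% fell in knockout cells, and the median log2 fold change of all tested genes was -0.01.

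Zeb2 fell and Twist1 rose in the Cdh1-/- cells, while Snai1, Snai2 and Zeb1 did not pass the test. Zeb2 fell to 0.253 of its WT level and Twist1 rose 2.50-fold. Of the 6 genes, 5 were counted deeply enough for a test, and these 2 calls are set against the 13.3% of all tested genes that were called. Twist2 was the untested gene. In RNA from whole cultures, fewer cells that express a gene and less RNA per cell cannot be told apart.

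**Figure D1:**
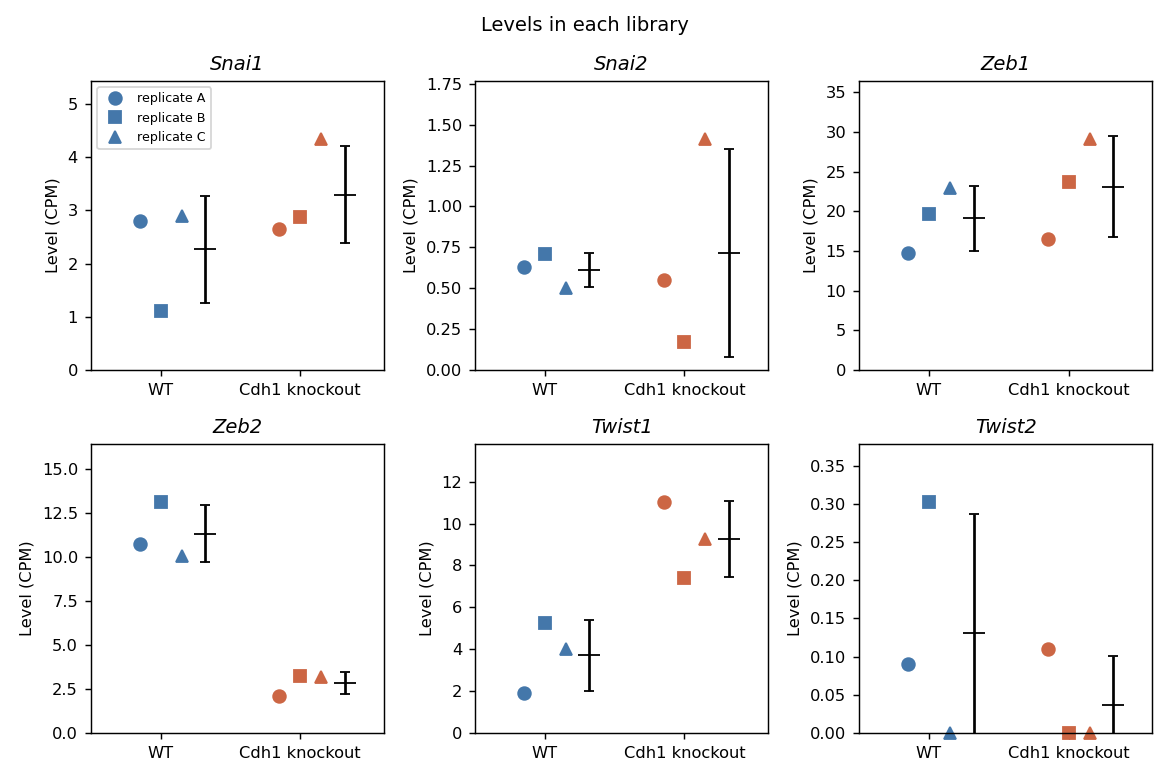
Levels in CPM (y axis, linear, a separate scale for each gene) of the 6 genes in WT (blue) and Cdh1 knockout (orange) libraries. Circles, squares and triangles are replicates A, B and C, and the black bar with whiskers is the mean ± SD of 3 libraries. Zeb2 was lower in all 3 knockout libraries than in any WT library, Twist1 was higher, and the groups of the other 4 genes overlapped. Among all tested genes the groups of 30.7% did not overlap.

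Among the Zeb genes, Zeb2 (ENSMUSG00000026872.18) had the largest change of the 5 tested members. It lies on the minus strand of chromosome 2 between bases 44983632 and 45117395 (GRCm38). WT libraries A, B and C gave 10.7, 13.1 and 10.1 CPM (201 to 260 counts), and knockout libraries A, B and C gave 2.1, 3.23 and 3.18 CPM (38 to 74 counts). The highest knockout library stood under the lowest WT library by a wide margin, and the 2 groups did not overlap, as was also the case for 30.7% of all tested genes. The log2 fold change was -1.98 (standard error 0.22, 95% interval -2.46 to -1.50, edgeR adjusted p 4.3e-05), which placed Zeb2 at rank 141 of 17325 genes by p. Over the fits that each left out 1 library it ranged from -2.08 to -1.81 and stayed called in all 6, and leaving out knockout replicate A gave -1.81 with an edgeR adjusted p of 7.5e-06. Zeb2os, a noncoding gene on the opposite strand that covers 3.14% of the exon bases of Zeb2, had at most 2 counts in any library.

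Zeb1 (ENSMUSG00000024238.15, chromosome 18, plus strand, 5591864 to 5775467), the other Zeb gene, was the most counted of the 6. Levels were 14.8, 19.6 and 23.0 CPM in WT libraries A, B and C, and 16.5, 23.7 and 29.1 CPM in knockout libraries A, B and C. The groups overlapped, with replicate A the lowest and replicate C the highest in both. The log2 fold change was 0.28 (95% interval -0.14 to 0.70, edgeR adjusted p 0.409), an interval that holds both no change and a rise of more than 1.5-fold. Without knockout replicate A the log2 fold change was 0.47 and the adjusted p 0.0587.

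The proportion of the 2 Zeb transcripts was compared within each library. The log2 ratio of Zeb2 to Zeb1 counts was -0.46, -0.57 and -1.18 in WT libraries A, B and C and -2.91, -2.84 and -3.16 in the knockout. All knockout values lay under all WT values. The difference of the means was -2.23, with an exact two-sided permutation p of 0.1, the smallest value that 3 libraries against 3 can give. It stayed between -2.45 and -2.09 whichever library was left out.

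Both Zeb transcripts are known targets of the miR-200 family, small RNAs that pair with the 3′ untranslated region through their seed. The 5 mouse members are shown because they fall into 2 seed groups, whose matches in the Zeb transcripts were counted. Sequences are from RefSeq (GRCm38.p6), written 5′ to 3′, with the seed (bases 2 to 8) in capitals.
mmu-miR-200b-3p: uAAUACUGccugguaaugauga
mmu-miR-200c-3p: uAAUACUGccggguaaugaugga
mmu-miR-429-3p: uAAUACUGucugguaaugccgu
mmu-miR-200a-3p: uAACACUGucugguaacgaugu
mmu-miR-141-3p: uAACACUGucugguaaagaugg

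The upper 3 share the seed AAUACUG and the lower 2 the seed AACACUG. In the longest protein-coding transcript of each gene in GENCODE M21, Zeb1 and Zeb2 each held 9 perfect seed matches in the 3′ untranslated region, 5 to the first seed and 4 to the second. Only 3 of 14201 tested genes with such a region held as many, and the other was D10Wsu102e, whose annotated region is 122586 bases long against 2404 bases in Zeb1 and 4944 bases in Zeb2. Snai1 held 1 match, Snai2 held 2, and Twist1 and Twist2 held 0, while 28.9% of the tested genes held at least 1. A pair of matches in Zeb2 (GRCm38 annotation, minus strand of chromosome 2) are shown as examples, 1 for each seed, with the 7 matching bases in capitals.
Zeb2, match to AAUACUG at base 396 of the region: actaccatacatCAGTATTttatta
Zeb2, match to AACACUG at base 212 of the region: aaaaattttgtaCAGTGTTaaggcc

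Zeb1 and Zeb2 held equal numbers of matches. Their log2 fold changes were 0.28 and -1.98, and any part of the miR-200 family in them was not tested. A seed match is a description of the letters and shows no binding. The hairpin genes of the miR-200 family, of miR-205 and of miR-34 (9 genes) had at most 4 counts in any library, and 4 of them had 0 in all. Mature miRNAs are not analysed here.

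Twist1 (ENSMUSG00000035799.6) was the member that rose. The gene lies on the plus strand of chromosome 12 between bases 33957671 and 33959829 and shares no exon base with another gene in the deposited coordinates. WT libraries A, B and C held 1.89, 5.25 and 4.0 CPM, and knockout libraries A, B and C held 11.1, 7.43 and 9.28 CPM. Every knockout library lay above every WT library, and the groups of 30.7% of all tested genes likewise did not overlap. Counts were 170 to 200 in the knockout and 42 to 104 in WT, with WT replicate A the lowest. The log2 fold change was 1.32 (standard error 0.30, 95% interval 0.68 to 1.96, edgeR adjusted p 0.00867). It was 1.0 without WT replicate A and 1.65 without WT replicate B. Without knockout replicate A it was 1.18 (edgeR adjusted p 0.0106), and it passed the threshold in all 6 fits that left out a library. When the test asked for a change of more than 1.5-fold (glmTreat), Zeb2 passed (adjusted p 0.000774) and Twist1 did not (adjusted p 0.132).

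Twist2 (ENSMUSG00000007805.4, chromosome 1, plus strand, 91801461 to 91848028), which encodes a closely related protein, was at or under the floor throughout. It had 2, 6 and 0 counts in WT libraries A, B and C and 2, 0 and 0 in the knockout. No difference was detectable at this depth, and no fold is given. A gene on the opposite strand (Gm29100) covers 46.5% of its exon bases. The ratio of Twist1 to Twist2 was not tested, since Twist2 lay at the floor.

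**Figure D2:**
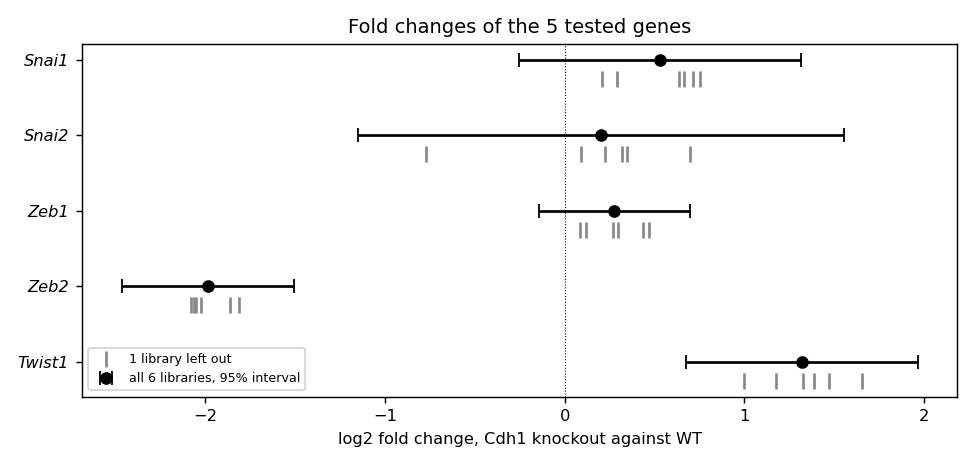
Log2 fold changes (x axis, Cdh1 knockout against WT) of the 5 tested genes. Black points and bars are the estimate and 95% interval from all 6 libraries, and grey ticks are the estimates with 1 library left out. The intervals of Zeb2 and Twist1 do not reach 0, and the ticks of Snai2 fall on both sides of it.

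Of the Snail genes, Snai1 (ENSMUSG00000042821.7, chromosome 2, plus strand, 167538195 to 167542814) encodes a well-known direct repressor of Cdh1. WT libraries A, B and C showed 2.79, 1.11 and 2.90 CPM, and knockout libraries A, B and C showed 2.65, 2.88 and 4.34 CPM, from 22 to 86 counts. The groups overlapped, with WT replicate B low and knockout replicate C high. The log2 fold change was 0.53 (95% interval -0.25 to 1.32, edgeR adjusted p 0.392), and without WT replicate B it was 0.21. The interval holds both no change and a rise of more than 2-fold.

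Snai2 (ENSMUSG00000022676.7, chromosome 16, plus strand, 14705852 to 14709385), also called Slug, was close to the floor. WT libraries A, B and C reached 0.630, 0.707 and 0.50 CPM, and knockout libraries A, B and C reached 0.553, 0.175 and 1.41 CPM. The knockout libraries ran from 4 to 28 counts and spanned the WT values on both sides. The log2 fold change of 0.20 (95% interval -1.15 to 1.55, edgeR adjusted p 0.882) turned to -0.77 without knockout replicate C, so no direction can be given. The log2 ratio of Snai1 to Snai2 differed by 0.73 between the genotypes (exact two-sided permutation p 0.5), with overlapping groups.

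Promoters were compared for the E-box that the Snail and Zeb proteins prefer, because these factors are known to act on their own and each other's genes. The motif was CAGGTG, searched on both strands (CACCTG on the printed strand), in the 250 bases before each RefSeq start site. Windows of Snai1, Zeb2, Twist1 and Twist2 were matched by symbol. Snai1 is shown because it held the motif, and Zeb2 and Twist1 because they changed. All are RefSeq GRCm38.p6, read 5′ to 3′ on the strand of the gene, with the motif in capitals.
Snai1, chr2:167537945-167538194, plus strand: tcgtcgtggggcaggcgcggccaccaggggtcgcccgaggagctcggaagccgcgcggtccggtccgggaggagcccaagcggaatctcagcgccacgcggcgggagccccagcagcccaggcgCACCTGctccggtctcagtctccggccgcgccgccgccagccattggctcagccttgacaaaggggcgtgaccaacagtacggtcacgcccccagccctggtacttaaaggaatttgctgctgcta
Zeb2, chr2:45117443-45117692, minus strand: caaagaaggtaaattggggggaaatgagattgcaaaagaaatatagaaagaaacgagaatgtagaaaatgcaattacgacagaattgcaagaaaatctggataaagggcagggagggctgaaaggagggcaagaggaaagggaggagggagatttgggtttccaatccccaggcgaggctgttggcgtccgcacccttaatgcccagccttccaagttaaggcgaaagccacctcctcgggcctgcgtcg
Twist1, chr12:33957421-33957670, plus strand: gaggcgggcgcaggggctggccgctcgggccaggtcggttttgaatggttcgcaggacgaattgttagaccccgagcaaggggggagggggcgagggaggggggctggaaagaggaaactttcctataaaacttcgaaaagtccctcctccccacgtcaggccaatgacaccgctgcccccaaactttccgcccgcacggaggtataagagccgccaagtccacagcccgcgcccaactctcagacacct

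Snai1 held 1 match, starting at position -126 from the start site. The windows of Twist1 and Twist2 and all 4 windows of Zeb2, the shown one being the farthest upstream, held 0. The Zeb2 windows not shown overlap annotated transcripts of the gene itself. In all, 17.2% of 32851 promoter windows of the same length held the motif. The absence of these letters in a window says nothing about binding elsewhere in the gene.

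Levels of different genes were compared per length, as CPM per kb of exon. In WT the order of the means was Zeb1 (3.30 ± 0.706), Twist1 (2.28 ± 1.04), Snai1 (1.40 ± 0.619), Zeb2 (0.988 ± 0.142), Snai2 (0.303 ± 0.0518) and Twist2 (0.0413 ± 0.0490), in CPM per kb (SD, n = 3). Neighbours from Zeb1 down to Zeb2 overlapped in their library values, and Snai2 lay under Zeb2 and above Twist2 without overlap. In the knockout Twist1 stood highest at 5.68 ± 1.11 CPM per kb and overlapped with Zeb1 at 3.98 ± 1.09 CPM per kb. Snai1 followed at 2.03 ± 0.564 CPM per kb, and Zeb2 at 0.248 ± 0.0558 CPM per kb now lay within the range of Snai2. The exon length of Zeb2, 11443 bases, is a union over many annotated transcripts, which lowers its value on this scale.

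On the same scale Twist1 made up 17.3%, 36.3% and 26.3% of the summed level of the 6 genes in WT libraries A, B and C, and 57.7%, 42.2% and 39.7% in the knockout. The share of Zeb2 was 9.42% to 13.9% in WT and 1.56% to 2.62% in the knockout. The summed level was 6.71 to 9.33 CPM per kb in WT and 10.8 to 14.4 CPM per kb in the knockout. Twist1 exceeded 35.1% of the tested genes per length in WT and 51.6% in the knockout, and Zeb2 exceeded 21.6% and 6.19%.

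**Figure D3:**
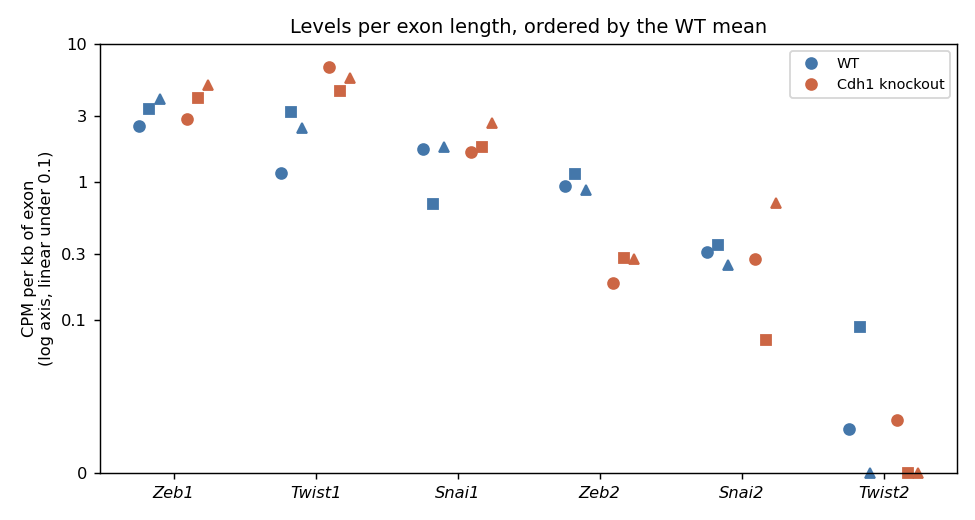
Levels per exon length (y axis, CPM per kb, a log axis that is linear under 0.1) of the 6 genes, ordered by their WT mean. Each point is 1 library, circles, squares and triangles being replicates A, B and C. Twist1 passed Zeb1 as the highest mean in the knockout, and Zeb2 dropped from 0.988 to 0.248 CPM per kb.

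Each member with at least 20 counts on average was set against 12847 genes to find those with the most similar profile over the 6 libraries, by the root mean square difference of centred log2 CPM. The nearest to Zeb2 were Rims1 (0.12), Ripply1 (0.18) and Fmr1nb (0.20), against a median of 1.03 over all genes compared. Rims1, of chromosome 1, went from a mean of 11.7 CPM to 3.27 CPM. The nearest to Twist1 were the homeobox gene Barx1 (0.16), Amn (0.27), which encodes an endocytic receptor subunit of the visceral endoderm, and Praf2 (0.28). For Snai1 they were Rassf10 (0.17), Cyren (0.17) and Dmrta2 (0.19), and for Zeb1 Gnai1 (0.08), Tmem104 (0.10) and Zfp169 (0.10). With 6 libraries such likeness describes the profile and no more.

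Markers of other cell types were examined because the members are expressed in many of them. All 12 listed markers of primitive endoderm and the extraembryonic endoderm that arises from it were called higher in the knockout. Of all tested genes 7.60% were called higher. Of these 12, 10 were called in each of the 6 fits that left out a library and 11 by DESeq2. Their median log2 fold change was 1.65. The list was chosen with earlier results of these data known. Foxa2, with 4 to 6 counts in WT, lay at or under the floor there and was tested through its knockout counts. The median is also 1.65 with the WT level of Foxa2 set at the floor. The summed level of the 12 markers was 492 to 654 CPM for WT against 1189 to 2243 CPM for the knockout. In knockout libraries A, B and C the markers summed to 1189, 1480.5 and 2243 CPM, and Twist1 stood at 11.1, 7.43 and 9.28 CPM. These markers rose together with Twist1, and their part in its rise was not tested.

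**Figure D4:**
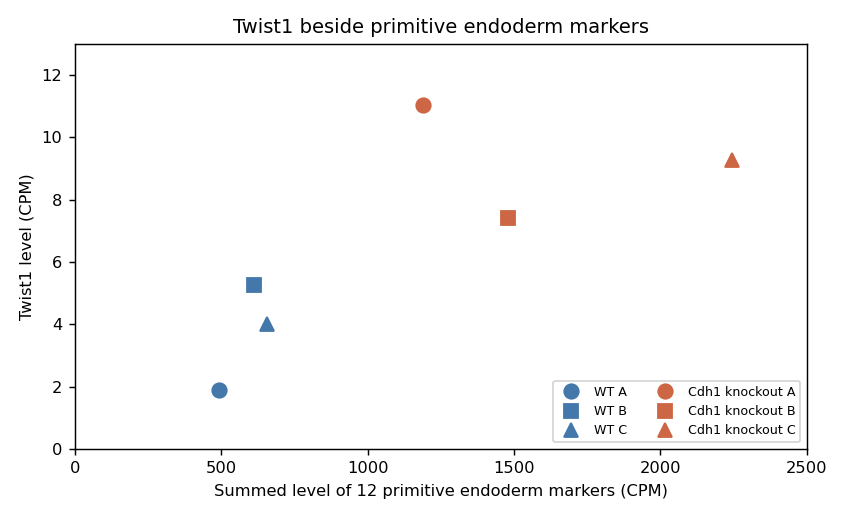
Twist1 level (y axis, CPM) against the summed level of 12 primitive endoderm markers (x axis, CPM) in each library, WT in blue and Cdh1 knockout in orange. Both axes separate the genotypes, as do the levels of 30.7% of all tested genes, and no relation within a genotype was tested.

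Fibroblast markers, which would come with feeder cells, summed to 82.1 to 103 CPM for WT. In knockout libraries A, B and C they summed to 93.0, 65.0 and 62.2 CPM. Of 12 listed, 7 were tested and 1 (14.3%, against 13.3% of all tested genes), Col1a1, was called, lower in the knockout. Without knockout replicate A, Col1a2 (log2 fold change -2.27, edgeR adjusted p 0.00993), Col3a1 (-4.51, 0.00219) and Fbln1 (-0.73, 0.000493) were also called lower. Thy1, Pdgfrb and Loxl1 were not called in that fit. The part of fibroblasts in the fall of Zeb2 was not tested. Fap had 0 counts in every library, and Lum, Dcn and Postn were too low to be tested. Of 8 tested mesoderm markers 0 were called by edgeR (against 13.3% of all tested genes), DESeq2 or limma-voom. Of these 8, 1 had an unadjusted edgeR p under 0.05. Among 7 tested neural crest and neural markers, 57.1% were called by edgeR, against 13.3% of all tested genes. Tfap2a, Pax6 and Nes fell, and Foxd3 was called higher by edgeR and not by limma-voom. The listed markers summed to 119 to 137 CPM for WT against 85.5 to 117 CPM for the knockout. Pax6 fell from 17.3 ± 3.82 CPM to 1.98 ± 0.680 CPM. Sox1, another neural progenitor marker, stood at 24.5 ± 3.78 CPM in WT libraries and 32.7 ± 12.9 CPM in knockout libraries, and with Ngfr and Sox10 it did not pass the test. The median log2 fold change of the 7 markers was 0.07. Neural progenitors also express Zeb2, and the part of neural cells in its fall was not tested. Of 7 tested trophoblast markers Tfap2c alone was called (14.3%, against 13.3% of all tested genes), with a log2 fold change of -1.06. The 10 embryonic stem cell markers were all present, at 5164 to 5526 CPM for WT against 5934 to 7105 CPM for the knockout. Of these markers, 3 (30%) were called higher and 0 lower, against 7.60% and 5.71% of all tested genes.

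Epithelial genes known as targets of these repressors were called in both directions. Of 35 listed, all were tested, 6 were called higher and 2 lower, 22.9% against 13.3% of all genes, with a median log2 fold change of -0.01 against -0.01. Cdh1, the disrupted gene itself, was 1 of the 2 lower ones. The other was Marveld3, a tight junction protein gene, which fell from a mean of 7.73 ± 1.05 to 3.72 ± 0.391 CPM (a log2 change of -1.05, edgeR adjusted p 0.00443). Higher were St14, the gene of the membrane protease matriptase (log2 fold change 0.63, adjusted p 0.000797), and the genes of its inhibitors, Spint1 (0.41) and Spint2 (0.37). Ocln (0.55), Krt19 (0.60) and Pkp3 (0.46) were also higher. Cldn4 (51.7 ± 4.98 CPM and 55.7 ± 14.3 CPM) and Epcam (158 ± 8.66 CPM and 166 ± 26.7 CPM) did not pass the test. Esrp1, an epithelial splicing factor known to be repressed by Zeb proteins, did not pass either (log2 fold change -0.73, edgeR adjusted p 0.0832). It stood at 48.6 CPM in knockout replicate A, within the WT range, and at 20.7 and 19.2 CPM in B and C. Without knockout replicate A it was called lower (-1.29, edgeR adjusted p 1.8e-06). Calls in this list numbered 5 without WT replicate A, again 5 without WT replicate B, and 10 without knockout replicate A, and those of St14, Spint1, Marveld3 and Cdh1 were kept in all 6 fits that left out a library.

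Mesenchymal genes that rise where these factors act were called mostly lower. Of 31 listed, 26 were tested, 10 were called lower and 5 higher, 57.7% against 13.3% of all genes, with a median log2 fold change of -0.58. By log2 fold change, the lower genes included the smooth muscle actin gene Acta2 (-3.30), the protease gene Mmp9 (-1.49), the matrix genes Col1a1 (-1.48) and Col5a2 (-1.32), and Cdh2 for N-cadherin (-1.32). Fn1, the fibronectin gene, fell from a mean of 1793 ± 70.6 to 1079 ± 77.3 CPM (a log2 change of -0.73), and Vim for vimentin fell by 0.48 on the log2 scale. The matrix gene Tnc was also called lower, with 86, 74 and 58 counts in WT libraries A, B and C and 2 counts in each knockout library. Its knockout counts lie under the floor, so Tnc was tested through its WT counts and no fold is given. Higher were Mmp14 (1.53), Pdgfra (1.49), Sparc (1.0), Itga5 (0.61) and Rhob (0.56). Pdgfra and Sparc are also among the endoderm markers above. Fn1 and Col5a2 lie on chromosome 1 and Mmp14 on chromosome 14, and the median log2 fold change of genes with at least 100 counts on average was -0.30 on chromosome 1 and 0.56 on chromosome 14, against 0.02 on the other autosomes. With the medians of those chromosomes removed, Fn1 and Mmp14 remained called and Col5a2 did not (adjusted p 0.136). Col1a1 is also among the fibroblast markers. The list had 18 calls without knockout replicate A, and of its 15 calls 12 were kept in every fit that left out a library, the others being Vim, Col5a2 and Rhob.

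**Figure D5:**
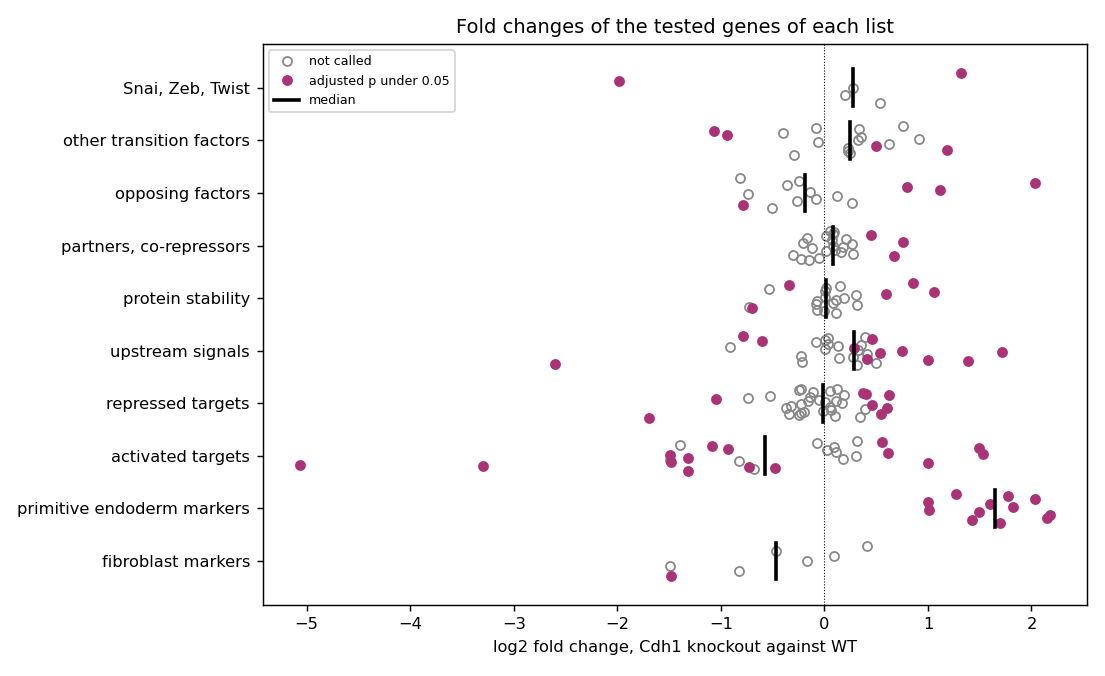
Log2 fold changes (x axis, Cdh1 knockout against WT) of the tested genes of 10 lists, 1 row per list. Filled points passed an adjusted p of 0.05, open points did not, and the black bar is the median. Activated targets have a median of -0.58, and every primitive endoderm marker lies above 0 and is filled. Tnc, at the floor in the knockout, and Foxa2, at the floor in WT, are drawn at fitted values that depend on the fit.

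Partners and co-repressors of the members were called at the background share. Of 23 tested, 3 were called higher and 0 lower, 13% against 13.3% of all genes. At an unadjusted p under 0.05 there were 6. Id1, an antagonist that takes E proteins away from Twist, rose from a mean of 60.6 ± 17.5 to 96.6 ± 19.4 CPM (a log2 change of 0.67, edgeR adjusted p 0.0196). Without knockout replicate C this p was 0.112, and Id1 was called in 3 of the 6 fits that left out a library. The LIM protein gene Ajuba (0.76) and the methyltransferase gene Prmt5 (0.45), both partners of Snail proteins, lie on chromosome 14 and lost their calls when the median of that chromosome was removed (adjusted p 0.392 and 0.630). The E protein genes Tcf3 (170 ± 9.49 CPM and 153 ± 8.78 CPM), Tcf4 (67.8 ± 2.92 CPM and 58.1 ± 5.99 CPM) and Tcf12 (66.7 ± 4.81 CPM and 64.2 ± 7.28 CPM) did not pass the test. The co-repressor genes Ctbp1 (log2 fold change 0.01), Ctbp2 (0.10), Kdm1a (0.09) and Hdac1 (-0.12) had no call either.

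Snail and Zeb proteins are short-lived, and their amount is set in part by kinases and ubiquitin ligases, whose transcripts formed another list. Of 21 tested genes, 3 were called higher and 2 lower, 23.8% against 13.3% of all genes, with a median log2 fold change of 0.02. Usp27x, a deubiquitinase known to stabilise Snai1, rose from a mean of 8.81 ± 0.626 to 18.4 ± 1.01 CPM (a log2 change of 1.06, edgeR adjusted p 0.000197). Mdm2, a ubiquitin ligase gene, rose by 0.60 on the log2 scale. The kinase gene Pak1 fell from a mean of 61.1 ± 5.48 to 37.7 ± 4.69 CPM (a log2 change of -0.70, adjusted p 0.000858). These 3 calls were kept in every fit that left out a library. Gsk3b, the kinase that marks Snai1 for degradation, did not pass (0.11, edgeR adjusted p 0.438), and the ubiquitin ligase genes Btrc (-0.08) and Fbxl14 (-0.07) also did not pass. Counts of RNA carry no measurement of protein stability.

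Genes of ligands, receptors and signal factors upstream of the members were called in 11 of 28 tested cases, 8 higher and 3 lower. That was 39.3% against 13.3% of all genes, with a median log2 fold change of 0.28. The ligand gene Tgfb2 had 98, 44 and 38 counts in WT libraries A, B and C and 4, 4 and 20 in the knockout (log2 fold change -2.60, edgeR adjusted p 0.00697). Without WT replicate A its log2 fold change was -2.13 (edgeR adjusted p 0.0664), and without knockout replicate C, where both remaining knockout libraries lie under the floor, the fitted value was -3.82, which then depends on the fit and is no bound. The receptor genes Tgfbr2 (1.39) and Tgfbr3 (1.0) rose, as did Nodal (0.54) and Nfkb1 (0.46), the last called in 1 of 6 fits that left out a library. Bmp4 rose from a mean of 10.2 ± 1.22 to 33.5 ± 6.65 CPM (a log2 change of 1.72), and its receptor gene Bmpr1a by 0.75 on that scale. Both lie on chromosome 14, and Bmp4 remained called without the chromosome median while Bmpr1a did not (adjusted p 0.264). Jag1 (-0.60) and Met (-0.78) fell. Smad2, Smad3, Smad4, Tgfb1 and Tgfbr1 did not pass. This list had 5 calls without WT replicate A, 6 each without WT replicate B, knockout replicate B or knockout replicate C, and 13 without knockout replicate A. Bmp4, Bmpr1a, Tgfbr2 and Acvr1b were the 4 called in each of these fits.

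Epithelial factors that oppose the members were called in 4 of 14 tested cases, 3 higher and 1 lower, 28.6% against 13.3% of all genes, with a median log2 fold change of -0.19. Klf4 rose from a mean of 237 ± 41.7 to 513 ± 135 CPM (a log2 change of 1.12, edgeR adjusted p 0.000398), and was the 1 gene of this list called in each fit that left out a library. Klf5 (0.79) lies on chromosome 14 and had an adjusted p of 0.429 once the median of that chromosome was removed. Elf3, on chromosome 1, had an edgeR adjusted p of 0.520 in the main fit. With the medians of chromosomes 1 and 14 removed it was called higher (log2 fold change 0.44, adjusted p 0.0190), and the list again had 4 calls. Grhl2, a factor known to repress Zeb1, fell from a mean of 9.42 ± 0.939 to 5.48 ± 1.67 CPM (a log2 change of -0.79, adjusted p 0.0325). Its call was kept in only 1 of the 6 fits that left out a library, that without knockout replicate A (edgeR adjusted p 0.00287). Without WT replicate A the adjusted p was 0.135. Foxa2, also an endoderm marker, had 6, 6 and 4 counts in WT libraries A, B and C and 20, 12 and 32 in the knockout. Its WT counts lie at or under the floor, so it was tested through its knockout counts. The call of Foxa2 (edgeR adjusted p 0.0298) was kept in 2 of the 6 fits that left out a library. Ovol1 (-0.26) and Ovol2 (-0.08) did not pass. Calls numbered 2 when WT replicate A was left out, 1 for WT replicate B, 2 without knockout replicate C, and 6 when knockout replicate A was left out.

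Among 17 tested transcription factors that are also described in EMT, 2 were called higher and 2 lower, 23.5% against 13.3% of all genes, with a median log2 fold change of 0.24. Sox4 fell from a mean of 74.1 ± 1.19 to 38.6 ± 2.27 CPM (a log2 change of -0.94, edgeR adjusted p 1.5e-05) and Ets1 from a mean of 10.3 ± 0.732 to 4.89 ± 0.676 CPM (a log2 change of -1.07, adjusted p 0.00162). Foxq1 (1.19, adjusted p 0.0439) and Klf8 (0.50, adjusted p 0.0478) were near the threshold, and their adjusted p without knockout replicate C was 0.198 and 0.188. Foxq1 was called in 2 and Klf8 in 1 of the 6 fits that left out a library. A gene on the opposite strand covers 66.1% of the exon bases of Foxq1. Snai3, the remaining Snail family gene, was counted at 8.80 ± 1.33 CPM for WT against 7.20 ± 1.28 CPM for the knockout (adjusted p 0.393). Calls in this list numbered 2 without WT replicate B, knockout replicate B or knockout replicate C.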

How the data were processed

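RNA-seq counts of 6 libraries were used. The authors deposited unnormalized counts in 1 table, 1 row per gene, and the length of the exons of each gene in bases, per the file headers. The submitters' processing notes list cutadapt 2.10, STAR 2.7.5b, featureCounts 2.0.1 and GRCm38. The strand setting and annotation release are not given in the sources used here. Libraries came from total RNA with a directional kit, per the labels' protocols. Symbols came from a reference table of gene identifiers and names, which matched 55141 of 55401 genes. Of the 55401 genes 22984 had 0 counts throughout. Between 78.1% and 83.1% of counts from 1 to 10 were even.

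Counts were fitted in R 4.3.3 with edgeR 4.0.16 (filterByExpr with a minimum of 10 counts and a total of 15, TMM, glmQLFit and glmQLFTest with genotype as the only term) over all 6 libraries. Adjusted p is the Benjamini-Hochberg value across the 17325 genes tested, and a gene is called under 0.05. Standard errors came from the F statistic. Levels are CPM on TMM-scaled totals. Paralog ratios used a prior count of 2. The members and lists were chosen with earlier results of these data known. The text names all 6 members, the called genes of 7 lists (at most 6 per list and direction, by size of change), and for each member averaging 20 counts or more the 3 genes (mean of at least 50) with the nearest profile. Fn1, Vim, Acvr1b, the cell type markers and the uncalled list genes named fall outside that rule and were chosen after their values were seen. Alternatives were other scalings and filters, DESeq2 1.42.0, limma-voom (limma 3.58.1), glmTreat, a replicate block, halved counts, chromosome medians removed and each library left out. Some called list genes are not reported here. The procedure was tested on simulated data.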

Additional observations from a re-analysis of the deposited data

How the results depend on the processing

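Zeb2 and Twist1 kept their direction under all 17 alternatives, and were called in all of them except that Twist1 failed glmTreat at 1.5-fold (log2 fold change 1.32, adjusted p 0.132). Snai2 turned to -0.26 with limma-voom, to -0.045 with the replicate block, and ranged from -0.77 to 0.70 when 1 library was left out. With glmTreat at 1.5-fold the calls numbered 355 among all genes, 1 of the members, 7 activated and 1 repressed target, 0 partners, 2 upstream, 1 stability, 1 opposing and 1 other transition gene. Calls of other transition factors numbered 2 with upper quartile factors, with library totals only and with the medians of chromosomes 1 and 14 removed, where 1 partner was called. Leaving out 1 library gave 1374 to 2784 calls among all genes, 5 to 10 repressed targets, 5 to 13 upstream genes, 1 to 6 opposing factors and 2 to 5 other transition factors, and the cause was not tested. With the replicate block 2 members and 2686 genes were called, against 2 members and 2307 genes in the main fit. Same-lettered libraries deviated together for A and C (correlations across genes 0.14 and 0.23) and not for B (-0.03). The main fit did not take the letters as pairs, and shared handling of same-lettered libraries was not tested. The pair of Twist genes got no test, since Twist2 was at the floor. Snai2 gave no value with counts divided by 2 or with a filter of at least 1 CPM in 3 libraries. Low counts limit Snai2 and Twist2, which lay near or under the floor.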
